A study of Homo sapiens with 14 samples.

Results

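STC1, STC2 and TNFRSF11B encode secreted proteins of blood vessel cells: the paired hormones stanniocalcin 1 and stanniocalcin 2, and osteoprotegerin. These 3 genes were followed in teloHAEC, a line of human aortic endothelial cells immortalised with telomerase, and each was found by its symbol among the 11261 genes of one comparison and the 11835 of the other. STC1 and TNFRSF11B were chosen because they rose after siRNA against CALCRL, so their values in that comparison describe the choice and are given without a test. STC2 was included as the paralogue of STC1, and the second comparison was not used to choose any of them.

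In the first comparison, cells reverse transfected with siRNA against CALCRL (4 libraries) were set against cells given scrambled siRNA (4 libraries), with RNA taken 24 hours later. In the second, cells electroporated with Cas9 and guides flanking an enhancer of CALCRL (3 libraries) were set against cells given a control guide aimed at HPRT (3 libraries), with RNA taken 2 days later. All 14 libraries came from the same commercial line. The labels describe an electroporation per replicate, with no sort or cloning of edited cells, and do not say whether the siRNA replicates were separate cultures, so their p-values may measure technical spread only. CALCRL encodes the calcitonin receptor-like receptor, through which adrenomedullin and CGRP act, and in the authors' deposited tables it was at 34.0% of the control after siRNA and 36.2% after the deletion.

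Stanniocalcins are secreted glycoproteins first known as regulators of calcium in fish. In mammals both bind and block the pappalysins, proteases that cut IGF binding proteins and so release insulin-like growth factors. STC1 is induced in many cells by low oxygen, and STC2 by the transcription factor ATF4 during stress of the endoplasmic reticulum. Osteoprotegerin is a soluble member of the TNF receptor superfamily that acts as a decoy: it captures RANKL (TNFSF11), the factor that drives osteoclast formation, and TRAIL (TNFSF10), a death ligand. Endothelial cells store it with von Willebrand factor and make more of it after NF-kB signals.

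By GENCODE 29 on GRCh38, STC1 (ENSG00000159167) occupies bases 23841915 to 23854807 of chromosome 8, and TNFRSF11B (ENSG00000164761) bases 118923557 to 118952200 of the same chromosome. STC2 (ENSG00000113739) occupies bases 173314713 to 173329503 of chromosome 5. All 3 are protein-coding and read from the minus strand. No other annotated gene overlaps any of the 3. The libraries were made with a 3' kit, so the reads come from the end of the transcript, where the annotated 3' UTR is 2855 bases long for STC1, 3134 for STC2 and 817 for TNFRSF11B. The last 500 bases of these transcripts have a GC content of 33.4%, 38.0% and 22.2%.

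Earlier work on these data had found the word GTAACAA in the 3' UTR of many genes that were lower after the siRNA, and GACGTA in that of many that were higher. The 3' UTRs of STC1, STC2 and TNFRSF11B were searched on the transcript strand for both words, which can overlap by the letters GTA. Neither word occurs in the 3' UTR of any of the 3 genes. Among genes called higher after siRNA, 31 of the 115 with an annotated 3' UTR hold GACGTA (27.0%), against 4.71% of all 10631 genes, and 4 hold GTAACAA (3.48%, against 10.3% of all). Of the 266 genes called lower, 155 (58.3%) hold GTAACAA and 9 hold GACGTA. In 3' UTRs within 20% of the member's length, GACGTA occurs in 6.93% for STC1, 7.55% for STC2 and 1.85% for TNFRSF11B. STC1 and TNFRSF11B were thus among the 84 higher genes without GACGTA. The AU-rich word TTATTTATT, a known mark of short-lived transcripts that was added after the values had been seen, occurs 1 time in STC1 and not in STC2 or TNFRSF11B. It is held by 14.0% of 3' UTRs of a length near that of STC1, by 9.67% of all and by 23 of the 115 called higher after siRNA.

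STC1 was the most clearly raised gene after CALCRL siRNA. Single libraries are not given in the tables, so group means were derived from the mean over all libraries and the fold change. The derived mean of STC1 was 649.8 normalised counts in the scrambled group and 1725 in the siRNA group. The log2 fold change of STC1 in the authors' deposited table was 1.41 (SE 0.09), which is 2.65-fold, with a 95% interval from 2.34 to 3.01. Its Wald statistic (fold change on the log2 scale over standard error) was 15.4 and the highest of all 11261 genes. Only 4 genes had a higher log2 fold change, and their means were between 6.65 and 21.2 normalised counts, against 1188 for STC1. STC1 ranked 1 among the 1869 genes whose mean reached 500 normalised counts, and the next was WSB1, at 0.80 (SE 0.14) in the authors' deposited table. These values chose the gene and are a description.

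TNFRSF11B was scarcer and its rise was less precisely measured. The derived mean of this osteoprotegerin gene was 27.0 normalised counts in the scrambled group and 58.0 in the siRNA group. Osteoprotegerin's log2 fold change, by the authors' deposited table, was 1.10 (SE 0.23), or 2.15-fold, with a 95% interval from 1.57 to 2.93. It ranked 7 by fold change and 22 by Wald statistic among the 118 genes called higher, whose median mean count was 266.3. Calls were made where the adjusted p-value was under 0.05, and 390 genes, or 3.46% of those tested, were called after siRNA (1.05% higher and 2.42% lower). With Student's t (6 degrees of freedom) in place of the normal reference 5 genes were called. That reference is strict, since it counts only the libraries although DESeq2 pools spread over genes. The share called is a background, and the calls of STC1 and TNFRSF11B add nothing to it because the comparison chose them.

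STC2 did not pass the test after siRNA. Its derived means were 925.4 normalised counts in the scrambled group and 847.1 in the siRNA group. The authors' deposited table gave a log2 fold change of -0.13 (SE 0.16) with an adjusted p-value of 0.904 by DESeq2's Wald test. The 95% interval ran from 73.2% to 114.5% of the control. The difference from STC1 was not tested, because the siRNA value of STC1 was the reason for its choice.

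**Figure D1:**
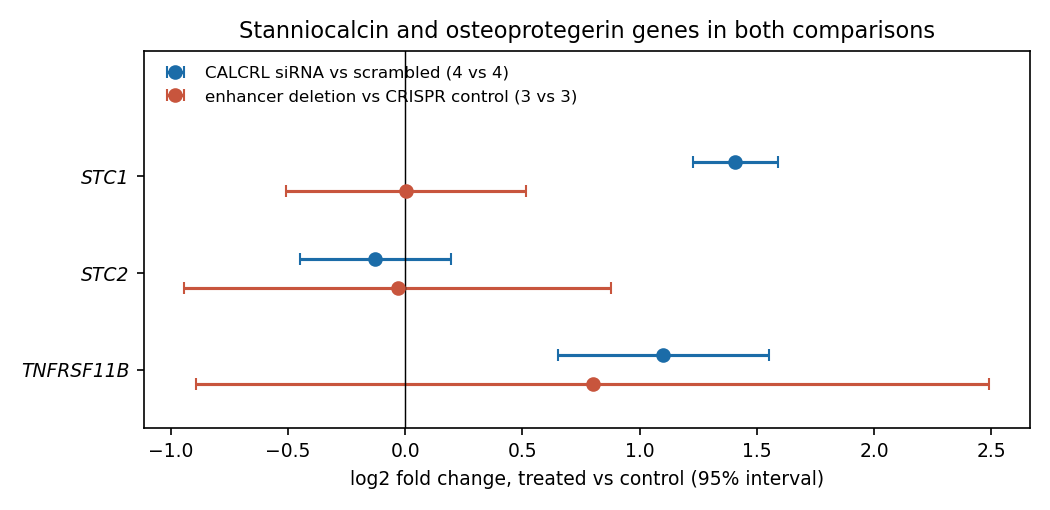
Log2 fold change (horizontal axis) of STC1, STC2 and TNFRSF11B after CALCRL siRNA (blue, 4 libraries against 4) and after enhancer deletion (red, 3 against 3), from the authors' deposited tables; points are estimates and bars 95% intervals. STC1 sits at 1.41 after siRNA and at 0.00 after the deletion, while the bar of TNFRSF11B after the deletion spans both 0 and its siRNA value.

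After deletion of the enhancer none of the 3 genes passed the test. In that comparison 1874 of the 11830 genes with a p-value were called, or 15.8% (7.4% higher and 8.44% lower). That count was set beside those under other references. With Student's t (4 degrees of freedom), or with the statistics divided by their robust SD of 1.88, 0 genes were called. At an unadjusted p-value under 0.05 there were 1646 and 534. The division sets the width of the bulk of the statistics by design, so it cannot decide how many genes changed. Nor can Student's t, which counts only the libraries although DESeq2 pools spread over genes. With so few degrees of freedom hardly any statistic could pass after adjustment over all genes. The derived mean of STC1 was 1254 normalised counts in the control group and 1258 in the deletion group. Its log2 fold change in the authors' deposited table was 0.00 (SE 0.26, adjusted p-value 0.994, DESeq2's Wald test), with a 95% interval from 70.3% to 143.0% of the control. A rise of the size seen after siRNA is outside that interval. STC1 would have needed a 1.62-fold change to be called here.

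STC2 was at 641.9 derived normalised counts in the control group and 627.5 in the deletion group. The authors' deposited table put its log2 fold change at -0.03 (SE 0.46, adjusted p-value 0.971, DESeq2's Wald test). Its 95% interval, from 52.0% to 183.8% of the control, is wide for a gene of this abundance, and a 2.35-fold change would have been needed for a call.

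TNFRSF11B had derived means of 22.3 normalised counts in the control group and 38.9 in the deletion group. For the deletion, the authors' deposited table gave this gene a log2 fold change of 0.80 (SE 0.86, adjusted p-value 0.572, DESeq2's Wald test). The 95% interval ran from 53.9% to 562.6% of the control, which holds both no change and the rise seen after siRNA. At this standard error the estimate would have needed to be 4.90-fold for a call. An estimate for the osteoprotegerin transcript of the size seen after siRNA would therefore not have been called here.

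**Figure D2:**
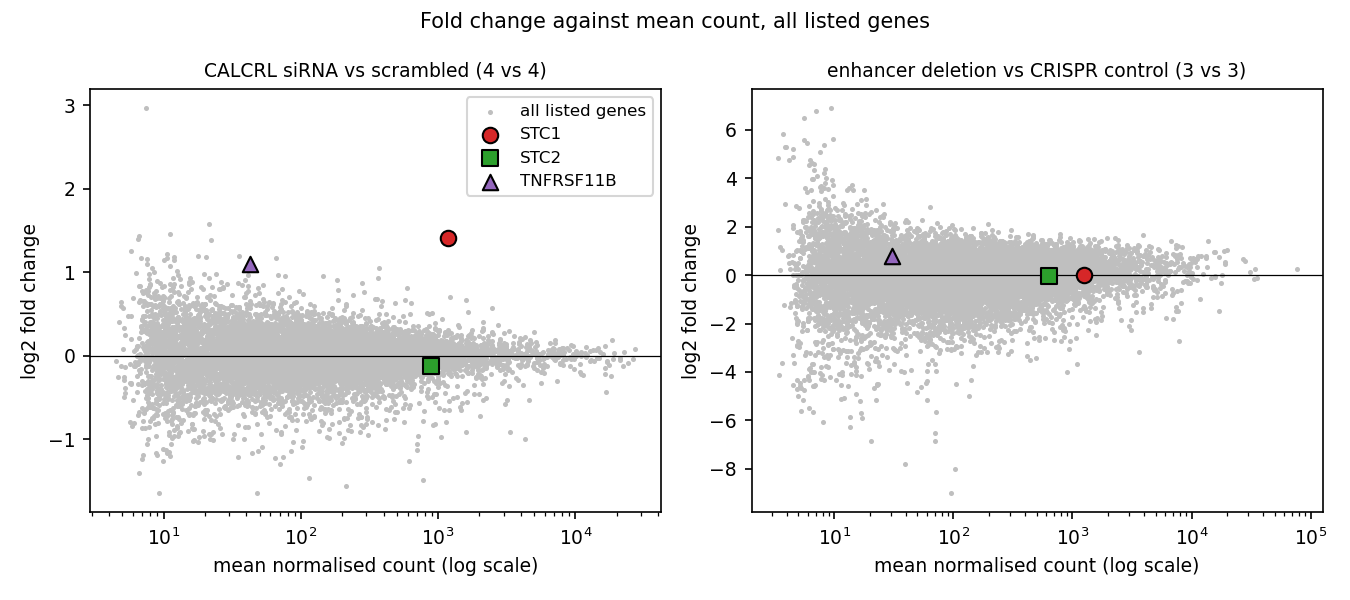
Log2 fold change (vertical axis) against mean normalised count (horizontal axis, log scale) for every listed gene (grey) in each comparison, from the authors' deposited tables, with the 3 genes in colour. After siRNA STC1 (red circle) stands above all genes of similar mean and TNFRSF11B (purple triangle) lies near the upper edge; after the deletion all 3 lie inside the grey cloud.

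The 2 comparisons share no library, so their fold changes can be set against each other directly. As a description, with no test since the siRNA value chose both genes, the siRNA value less the deletion value was 1.40 (SE 0.28) on the log2 scale for STC1 and 0.30 (SE 0.89) for TNFRSF11B. With a trend on GC content removed from both comparisons, the difference was 1.31 for STC1 and -0.0082 for TNFRSF11B. For STC2, which was not chosen on its values, the difference was -0.09 (SE 0.49; adjusted p-value 0.926 by a normal test over the 10891 genes tested in both), with an interval from -1.06 to 0.87. Delivery, time and control also differ between the comparisons and cannot be told apart from the target.

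The spread between libraries implied by the standard errors was not the same for the 3 genes. From the standard errors and means, the implied coefficient of variation (CV) of STC1 across libraries was 8.36% for siRNA and 22.0% for the deletion. TNFRSF11B had CVs of 15.4% and 70.8%. STC2 had CVs of 15.8% and 39.3%, against medians of 11.2% and 25.5% among genes whose mean reached 100 normalised counts. The standard error of STC2 was 1.62 times the median of genes with a similar mean after siRNA and 1.76 times after the deletion, while that of STC1 was 0.90 and 1.07 times. For TNFRSF11B, whose means of 42.5 and 30.6 normalised counts were under 100, the ratios were 0.95 and 1.27. By these implied values STC2 was the more variable of the paralogues in both experiments. They rest on DESeq2's fitted dispersion, which is pooled in part over genes, and not on a spread observed between libraries. Which libraries carry the spread cannot be read from the tables.

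**Figure D3:**
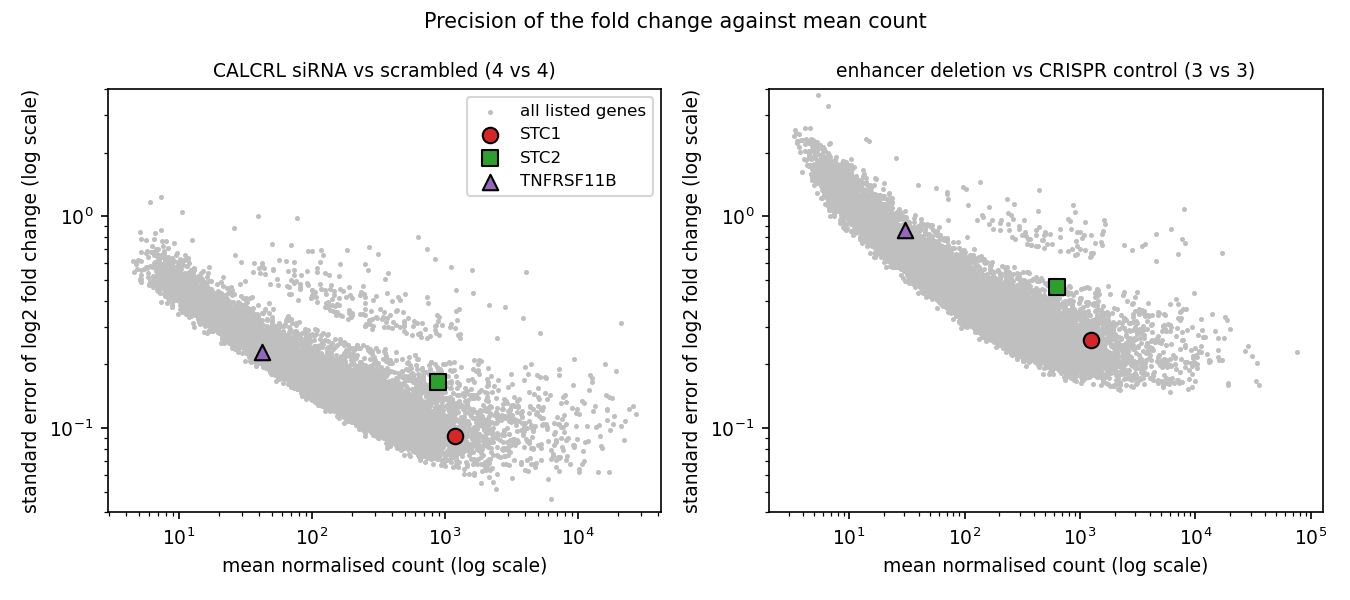
Standard error of the log2 fold change (vertical axis, log scale) against mean normalised count (horizontal axis, log scale) for every listed gene (grey) and the 3 genes (colour) in each comparison. STC2 (green square) lies above the bulk of genes of its mean in both panels, at 1.62 and 1.76 times their median, whereas STC1 (red circle) lies within it.

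Genes with the most similar pair of fold changes were found by the Euclidean distance between the log2 values of the 2 comparisons, over 7933 genes whose mean reached 50 normalised counts in both. For STC1 these were TAPT1 (distance 0.43), the cationic amino acid transporter SLC7A2 (0.47) and PPP2R1B, a scaffold subunit of protein phosphatase 2A (0.53). The authors' deposited tables gave TAPT1, whose 3' UTR holds GACGTA 1 time, 1.17 (SE 0.19) after siRNA and -0.35 (SE 0.52) after the deletion. SLC7A2 holds GACGTA in its 3' UTR 2 times and PPP2R1B does not hold it; neither this word nor GTAACAA occurs in the genes most like TNFRSF11B or STC2 named next. For TNFRSF11B, whose own means fell short of 50, the most similar were C1orf110 (0.36), the granulocyte growth factor gene CSF3 (0.40) and C11orf49 (0.44). For STC2 they were TOX2, SVIL and CAPRIN1, all within 0.02, but 205 genes lay within 0.1 of STC2, since most genes moved little. No gene lay that close to STC1 or TNFRSF11B. The distances given for TNFRSF11B were below its standard error after the deletion (0.86), so their order is not settled. A likeness over 2 comparisons is a description only.

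The first set of partner genes was that of the ligands of osteoprotegerin and their other receptors. Of 9 genes 7 were tested, and none was called after siRNA, where 3.46% of all genes were called. The median log2 fold change of the 7 was 0.09, against 0.00 over all genes. After the deletion 2 were called, both lower, where 8.44% of all genes were called lower. They were the TRAIL death receptor TNFRSF10B, and SDC1, a heparan sulfate proteoglycan of the cell surface. The authors' deposited table had TNFRSF10B at -1.43 (SE 0.48, adjusted p-value 0.0259, DESeq2) and SDC1 at -1.29 (SE 0.42, adjusted p-value 0.0224). TNFRSF11A, the receptor RANK, was called in neither of the authors' deposited tables, at -0.30 (SE 0.25) after siRNA and -0.16 (SE 0.61) after the deletion. The death receptor TNFRSF10A and the decoy TNFRSF10D were between -0.08 and 0.13 in both of the authors' deposited tables, and the decoy TNFRSF10C was at -0.07 (SE 0.31) and 0.57 (SE 0.65). The ligand genes TNFSF11 and TNFSF10 were not analysed here.

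Among other receptors of the TNF superfamily, 0 of 12 tested were called after siRNA by DESeq2, against 3.46% of all genes. Of the 12, 0 had an unadjusted p-value under 0.05. After the deletion 3 of 11 were lower and none higher, against a background of 8.44% and 7.4%. In the authors' deposited table these were TNFRSF19 (-2.16, SE 0.38), the TWEAK receptor TNFRSF12A (-3.16, SE 0.92) and the death receptor TNFRSF21 (-1.43, SE 0.47). TNFSF12, which encodes TWEAK, the ligand of TNFRSF12A, was the 1 call among 6 tested ligands, at -4.39 (SE 0.89, adjusted p-value 9.59e-05, DESeq2) by the authors' deposited table. Their standard errors after the deletion were 1.72 (TNFSF12) and 2.57 (TNFRSF12A) times the median of genes with a similar mean. After siRNA the authors' deposited table had TNFSF12 at 0.34 (SE 0.44) and TNFRSF12A at -0.10 (SE 0.32), neither called.

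Of 15 tested adaptors that carry signals from TNF receptors, 3 were called after siRNA, all lower, where 2.42% of all genes were called lower: BIRC3 and BIRC2, ubiquitin ligases of the receptor complex, and FADD, the adaptor of death receptors. The authors' deposited table gave BIRC3 -0.82 (SE 0.10), FADD -0.45 (SE 0.12) and BIRC2 -0.38 (SE 0.08). The list's median was -0.08. After the deletion 1 of 13 was called, where 15.8% of all genes were called. This was the kinase gene RIPK1, for which the authors' deposited table has -1.32 (SE 0.29, adjusted p-value 0.000383, DESeq2). BIRC3 was not analysed there.

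No gene of the pappalysin and IGF axis, on which stanniocalcins act, passed the test after siRNA, where 3.46% of all genes did. Of 10 tested by DESeq2 0 were called and 0 had an unadjusted p-value under 0.05. The authors' deposited tables have PAPPA2, a pappalysin, at 0.17 (SE 0.13) after siRNA and 0.39 (SE 0.35) after the deletion; PAPPA was not analysed here. IGFBP4, the main substrate of PAPP-A, was at -0.02 (SE 0.12) and 0.07 (SE 0.23) in the authors' deposited tables. IGFBP5, another pappalysin substrate, was at 0.63 (SE 0.36) and -0.81 (SE 0.44), and IGFBP3 at 0.04 (SE 0.24) and -1.92 (SE 0.82), with no call in either of the authors' deposited tables. After the deletion IGFBP7 was the 1 call of 11, where 15.8% of all genes were called. It was lower at -1.05 (SE 0.34) in the authors' deposited table, and it lost the call when a trend on GC content was removed (adjusted p-value 0.0539).

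Calcium handling genes were tested because STC2 is known to dampen store-operated calcium entry through STIM1, and STC1 to raise the mitochondrial uncoupling protein UCP2. None of 13 was called after siRNA by DESeq2, where 3.46% of all genes were, with 2 at an unadjusted p-value under 0.05. By the authors' deposited table for siRNA UCP2 was at 0.81 (SE 0.27, adjusted p-value 0.0617, DESeq2), short of the threshold, and was not analysed after the deletion. STIM1 was at 0.22 (SE 0.13) and 0.17 (SE 0.32) in the authors' deposited tables. After the deletion 3 of 12 were called, against 15.8% of all genes. The calcium pump gene ATP2A2 (-1.71, SE 0.32) and the channel gene ORAI3 (-1.50, SE 0.51) were lower and ORAI2 (0.87, SE 0.32) was higher in the authors' deposited table, and ORAI2 lost the call with the GC trend removed (adjusted p-value 0.325).

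Of genes tied to vascular calcification and bone matrix, in which osteoprotegerin is best known, 1 of 14 was called after siRNA, against 3.46% of all genes. This was the matrix protein gene POSTN, at -0.50 (SE 0.10) in the authors' deposited table. After the deletion 4 of 15 were lower and 1 was higher, against 8.44% and 7.4% of all genes. The lower ones were the growth factor gene BMP6 (-1.58, SE 0.33), the WNT antagonist DKK1 (-1.99, SE 0.58), the AXL ligand GAS6 (-3.00, SE 0.92) and NT5E, the ectonucleotidase CD73 (-0.99, SE 0.23), in the authors' deposited table. The receptor gene AXL was higher at 0.69 (SE 0.25) in the authors' deposited table, a call lost with the GC trend removed (adjusted p-value 0.145).

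**Figure D4:**
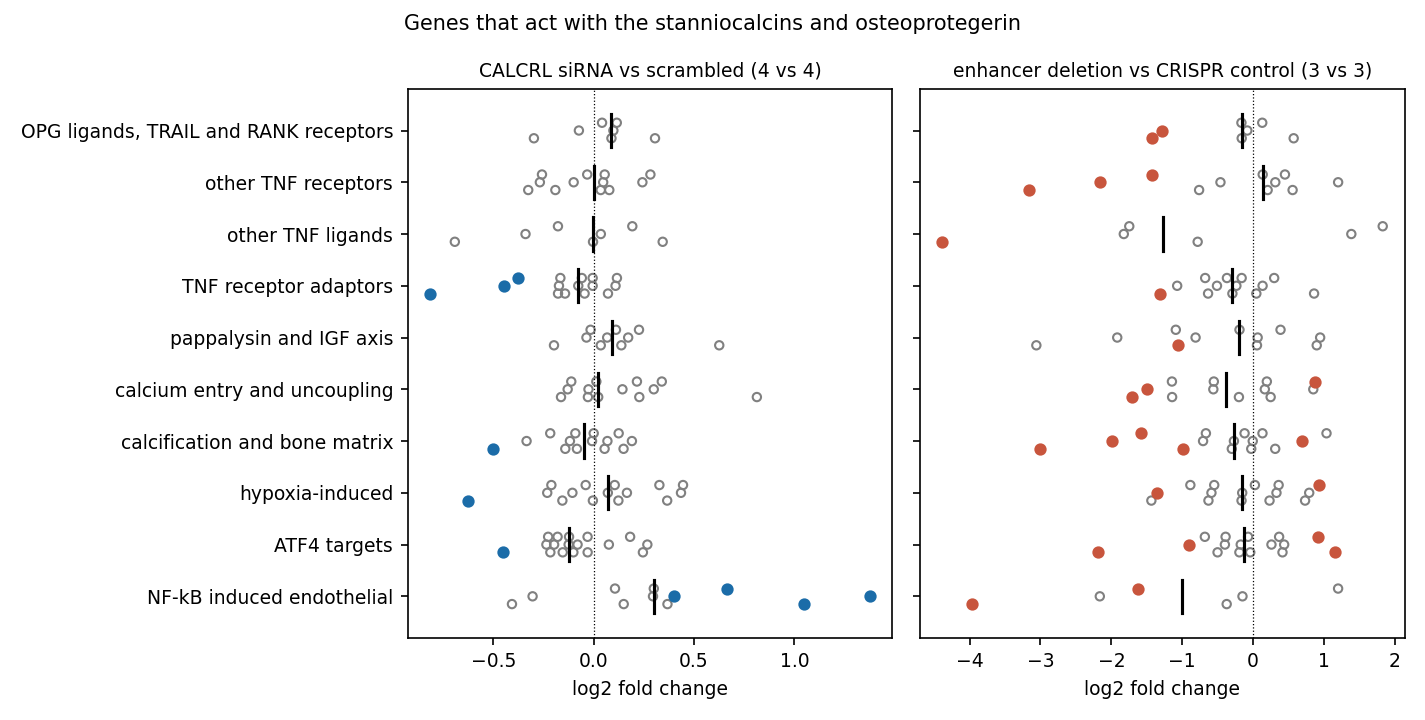
Log2 fold change (horizontal axes, which differ in range) of the tested genes of 10 lists (rows) after CALCRL siRNA (left) and after enhancer deletion (right), from the authors' deposited tables. Filled points passed an adjusted p-value of 0.05, open points did not, and black bars are list medians; after siRNA the NF-kB list has 4 filled points to the right and the TNF receptor adaptors 3 to the left.

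The 3 genes were also set beside genes that share their best known inducers. Of hypoxia-induced genes, to which STC1 belongs, none of 15 tested was higher after siRNA and 1 was lower, the lipase inhibitor gene ANGPTL4 (-0.63, SE 0.12, in the authors' deposited table). The list's median was 0.07, against 0.00 over all genes. The shares of all genes called after siRNA were 1.05% higher and 2.42% lower. Of ATF4 targets, to which STC2 belongs, none of 17 was higher after siRNA and 1 was lower, the cystine transporter gene SLC7A11 (-0.45, SE 0.10, in the authors' deposited table). Their median was -0.12, and STC2 was at -0.13 (SE 0.16). A cause shared by STC2 and these genes was not tested.

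Of NF-kB induced endothelial genes, to which TNFRSF11B belongs, 4 of 11 tested were higher after siRNA and none was lower, with a median of 0.30. They were the cytokine genes IL1B (1.38, SE 0.25) and CSF3 (1.05, SE 0.16) and the chemokine genes CXCL1 (0.66, SE 0.17) and CXCL3 (0.40, SE 0.12), in the authors' deposited table. The share of all genes called higher was 1.05%. The other 7 were not called. In the authors' deposited table they included IL6 (-0.41, SE 0.31) and the adhesion molecule gene SELE (-0.30, SE 0.36), both below 0, and ICAM1 (0.11, SE 0.09) and the chemokine gene CCL2 (0.30, SE 0.27), above it. BIRC3, which NF-kB also induces, was lower, as given above. The lists were drawn up with earlier results of these data known, and no cause shared by TNFRSF11B and the 4 genes was tested.

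After the deletion the hypoxia and ATF4 lists had calls in both directions and the NF-kB list had lower calls. Of hypoxia-induced genes SLC2A1, a glucose transporter gene, was lower (-1.36, SE 0.42) and the glycolytic enzyme gene ENO1 higher (0.93, SE 0.24), in the authors' deposited table. Of ATF4 targets CEBPB (-2.19, SE 0.57) and VLDLR (-0.90, SE 0.32) were lower, and ATF4 itself (0.92, SE 0.24) and the serine synthesis enzyme gene PHGDH (1.16, SE 0.40) were higher in the authors' deposited table. Of 6 NF-kB induced genes CXCL1 (-1.63, SE 0.40) and CCL2 (-3.97, SE 0.72) were lower in the authors' deposited table, while CSF3 (1.20, SE 0.62) was not called. Over all lists, markers included, 5 genes were called higher and 21 lower after the deletion, of 126 tested, which is 20.6%, against 15.8% of all genes. With a trend of fold change on GC content removed, 0 of the 5 and 19 of the 21 kept the call. The lower genes that lost it were IGFBP7 and VLDLR. Over all genes the number called went from 1874 to 1375, gained calls included. The share of all higher and lower calls that was kept was not computed, so the list counts have no background. Other list genes gained a call, among them CD70, lower at -2.27 (adjusted p-value 0.0317, normal test), and ANKH, higher at 1.11 (adjusted p-value 0.0427). The medians of the 10 partner and inducer lists were between -1.26 (other TNF ligands) and 0.14 (other TNF receptors), against 0.00 over all genes.

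The position of the genes was looked at within 1 Mb. The cluster of TRAIL receptor genes, TNFRSF10A to TNFRSF10D, lies within 1 Mb of STC1, although their proteins bind the ligand of osteoprotegerin and not the stanniocalcins. Of the 11 tested neighbours of STC1 none was called after siRNA, with log2 fold changes between -0.13 and 0.49, so the rise of STC1 was not shared by a called neighbour. None of the 3 tested neighbours of TNFRSF11B was called in either comparison; by the authors' deposited table SAMD12 was the highest after siRNA, at 0.92 (SE 0.35, adjusted p-value 0.151, DESeq2). Near STC2, which did not change detectably, the authors' deposited table for siRNA had BOD1 higher (0.73, SE 0.12) and CREBRF lower (-0.69, SE 0.18) among 10 neighbours. After the deletion TNFRSF10B and LOXL2 (-0.85, SE 0.31) near STC1 and DUSP1 (-1.51, SE 0.51) near STC2 were lower in the authors' deposited table. Of all genes, 1.05% were called higher and 2.42% lower after siRNA, and 8.44% lower after the deletion.

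The label of the cells was checked against marker genes. Of 13 endothelial markers 12 were listed in both tables, among them TIE1, ROBO4, ESAM and CDH5; PECAM1 was not analysed here. After siRNA 1 of the 12 was called, EGFL7 (-0.46, SE 0.11), and after the deletion 2, CDH5 (-1.44, SE 0.35) and KDR (-1.05, SE 0.31), all lower in the authors' deposited tables. The shares of all genes called were 3.46% after siRNA and 15.8% after the deletion. Of 14 markers of smooth muscle, fibroblasts and leukocytes 2 were tested, ACTA2 and CD68, and neither was called. ACTA2 was not scarce, with means of 225.1 (siRNA) and 182.5 (deletion) normalised counts, against 129.9 and 130.3 for the median gene. Endothelial markers lay on both sides of it, such as TIE1 (1873 and 1188) and EMCN (64.4 and 9.78). CD68 was at 41.2 and 12.3. VWF, whose protein is stored with osteoprotegerin, was at -0.43 (SE 0.35) and 0.54 (SE 1.14) in the authors' deposited tables. Since RNA was taken from whole cultures, fewer cells of a kind and less RNA per cell cannot be told apart.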

How the data were processed

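The authors deposited 1 table per comparison and, per the file headers, each lists per gene the mean normalised count, log2 fold change with standard error, Wald score, p-value and adjusted p-value, but nothing per library. Per the names the authors gave the files, they counted reads with featureCounts and compared groups with DESeq2. The submitters' processing notes also name edgeR 3.24.3 and the build hg19, without their role. The aligner, annotation and use of strand are not given in the sources used here. The kit was QuantSeq 3' mRNA-seq FWD, read for 86 cycles, per the labels' protocols. Library depth is unknown, so precision is read from the deposited standard errors, and tests of single genes within a comparison are the authors' own.

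From these values were computed 95% normal intervals, group means and the implied coefficient of variation (from the standard error, less counting noise). Differences between the comparisons were also computed (normal test, Benjamini-Hochberg adjustment, scipy 1.17.1). The difference test was checked on simulated data with noise drawn from the deposited standard errors. That check could not show whether those errors are too small. Standard errors were set against the median of the 100 genes on each side by mean count. Alternatives were Student's t, division by the robust SD, a minimum mean of 50, removal of a GC trend over the last 500 bases (lowess, span 0.3, statsmodels 0.14.6) and centring on the median gene. Positions and 3' UTRs are from GENCODE release 29, matched by gene ID.

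Named genes are the members, called genes of 12 lists, key partners whether called or not, CALCRL and the 3 genes most like each member; WSB1, the chromosomal neighbours and other uncalled genes were named after their values were seen. Members and lists were chosen with earlier results of these data known.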

Additional observations from a re-analysis of the deposited data

Results flagged for a closer look

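Of 124 genes of the lists tested in both comparisons, 21 had effects that differed between siRNA and deletion at an adjusted p-value under 0.05 by a test of the difference, as did 1493 of all 10891 genes (13.7%). The arms also differ in delivery, time and control. Once these statistics were scaled down by their robust SD, 0 genes remained called, with 447 at an unadjusted p-value under 0.05. That scaling sets the width of their bulk by design. STC2 was not among the 21, and STC1 and TNFRSF11B were not tested.

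Differences are the siRNA log2 fold change minus that of the deletion. In 17 genes the siRNA value was the higher. Among TNF superfamily genes and partners these were TNFSF12 (4.73), TNFRSF12A (3.06), TNFRSF19 (2.21), TNFRSF21 (1.67), SDC1 (1.60), TNFRSF10B (1.55) and RIPK1 (1.15). Among inducer lists they were CCL2 (4.27), CXCL1 (2.29), CEBPB (2.16) and VLDLR (1.17). CXCL1 was called higher after siRNA and lower after the deletion. Among calcium and calcification genes they were GAS6 (3.00), DKK1 (1.90), BMP6 (1.73), ATP2A2 (1.68) and MICU2 (0.89), and among endothelial markers CDH5 (1.45). In 4 genes the deletion value was the higher: ANGPTL4 (-1.36), ENO1 (-1.09), ATF4 (-1.02) and SLC3A2 (-0.67). All differences in this section are without removal of a GC trend. With that trend removed, the deletion values of ANGPTL4, ENO1 and ATF4 were 0.04, 0.40 and 0.62, instead of 0.73, 0.93 and 0.92.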

How the results depend on the processing

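No paired analysis was possible because values per library are not given, and leaving out a replicate was not run for the same reason. For the members' tests 21 values were recomputed (STC2 in both comparisons and in their difference, STC1 and TNFRSF11B after the deletion). Of these 19 kept direction and side of the threshold, 2 changed sign, and none of the 21 passed it. Some could not have passed, since after the deletion 0 genes at all were called under Student's t or the robust SD. The same holds for the difference of STC2 divided by the robust SD, where 0 genes remained called. The deposited siRNA values chose STC1 and TNFRSF11B, so their adjusted p-values are no test; under the Student t reference that of TNFRSF11B became 0.294. That reference, strict for the reason given above, left 5 called genes after siRNA (774 at an unadjusted p-value under 0.05). After the deletion it left 0 called genes (1646 at an unadjusted p-value under 0.05), and division by the robust SD also left 0 (534). The sign of 2 values near 0 in the deletion comparison turned: STC1 when centred on the median gene (0.00 to -0.00046, adjusted p-value 0.999) and STC2 with the GC trend removed (-0.03 to 0.03, adjusted p-value 0.979). With the GC trend removed the difference of TNFRSF11B between the comparisons was -0.0082 instead of 0.30, since its deletion value became 1.11. With a minimum mean of 20 normalised counts, SCG5 and CCDC113 became the genes most like STC1 and TNFRSF11B.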
